A study of Homo sapiens with 2 samples.

Results

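The calnexin-calreticulin cycle is the quality control loop in which the endoplasmic reticulum (ER) folds glycoproteins. A glucose-tipped glycan is attached to a growing protein, glucosidases trim it, and the lectins calnexin and calreticulin hold the trimmed form together with a disulfide isomerase until the protein has folded. Proteins that have not folded are given a glucose again by a sensor enzyme and return to the lectins. Described here are 7 genes of this cycle, out of 57820 gene IDs counted: CALR, CANX, PDIA3, UGGT1, MOGS, GANAB and PRKCSH. They were chosen by name as the core of the cycle, by Ensembl ID matched before the version number, with earlier results of these data known, so their levels are a description and carry no test.

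The samples were 2 ribosome profiling libraries of HEK293 cells, a widely used line of human embryonic kidney origin. Both belonged to 1 group, which had received the vehicle DMSO for 12 h. Replicate 2 came from batch 2 and replicate 1 from batch 1, so replicate and batch cannot be told apart. In this assay RNase I digests the mRNA that ribosomes do not cover, and the protected fragments are counted, here those of 27 to 29 nt. The title of the series asks about ribosome occupancy of mRNAs for aggregating proteins; minocycline-treated cells and matched RNA-seq are not analysed here.

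Replicate 2 held 611266 counts and replicate 1 held 865838 counts, so 1 fragment equals 1.64 CPM (counts after each library is scaled to 1000000) in replicate 2 and 1.15 CPM in replicate 1. A count depends on the amount of mRNA, on how densely ribosomes cover it and on the length of its coding sequence, and these cannot be told apart from counts alone. Coding lengths were not used here, so counts of different genes are given as their share of all fragments and not as a density. The intervals below are exact intervals at 95% that cover counting error only, and PCR copies of a fragment, where they were counted more than once, would make them too narrow. Nothing in the labels states that the replicates came from separate cultures beyond their batch numbers, so an SD over the 2 libraries may be partly technical.

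The cycle genes were among the most counted in the whole table. GANAB, CALR and CANX ranked 6, 7 and 8 of 57820 IDs in replicate 2 and again 6, 7 and 8 in replicate 1. The other members ranked lower: PRKCSH ranked 46 in replicate 2 and 41 in replicate 1, and PDIA3 ranked 153 and 164 in the same order of libraries. UGGT1 ranked 280 in replicate 2 and 217 in replicate 1, and MOGS ranked 446 and 524. When the 6965 IDs whose counts sum to 20 or more were cut into 10 bins by abundance, all 7 lay in the highest. Their summed share was 1.88% in replicate 2 (Clopper-Pearson interval 1.85 to 1.91), against 2.13% in replicate 1 (2.10 to 2.16), a mean of 2.01% ± 0.178 (SD, n = 2). These shares depend on the 2 highest IDs, which lie outside the set. Those IDs had 134667 and 97787 CPM in replicate 2, against 90841 and 84838 CPM in replicate 1. A larger share for them lowers every other share and CPM, including those of single genes below. The share of each library without them is not given here.

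**Figure D1:**
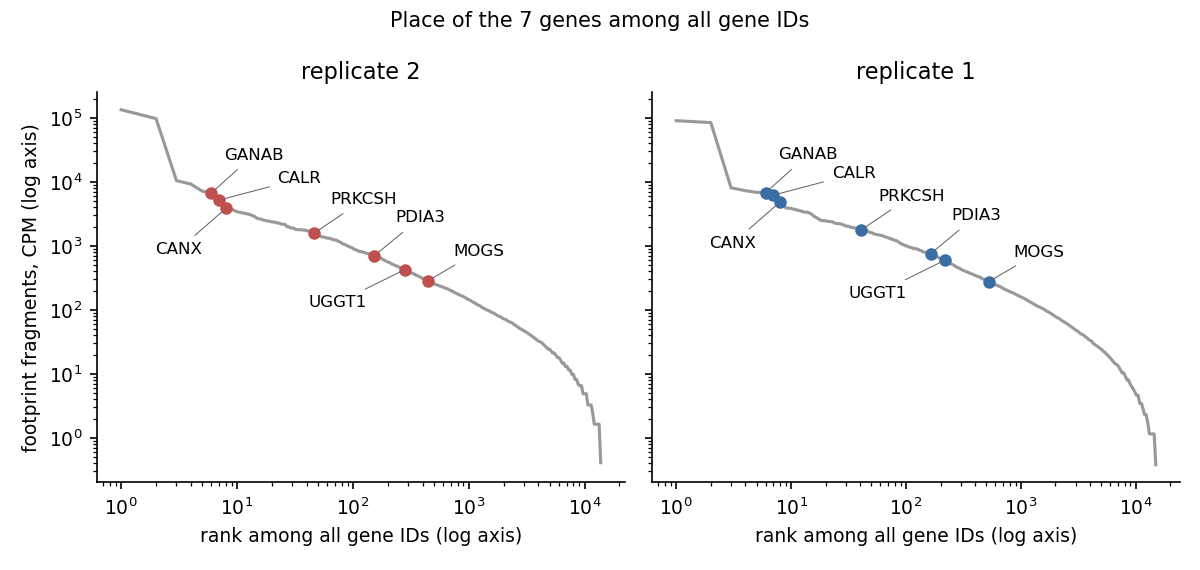
Fragments per gene ID (CPM, log axis) against rank among all IDs (log axis) in replicate 2 (left) and replicate 1 (right); the grey line is all IDs above 0 and the points are the 7 cycle genes. GANAB, CALR and CANX stand at ranks 6, 7 and 8 in both libraries, and the other 4 lie further down the curve.

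CALR (ENSG00000179218.9) encodes calreticulin, a soluble lectin of the ER lumen that also binds calcium. It had 3187 counts in replicate 2 and 5394.5 in replicate 1, which is 5214 CPM (interval 5036 to 5398) and 6230.4 CPM (6066 to 6399). Its share of all fragments was therefore lower in replicate 2, and the intervals did not overlap.

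CANX (ENSG00000127022.10) encodes calnexin, the membrane-anchored relative of calreticulin, with a lectin domain that faces the ER lumen. It had 2359 counts in replicate 2 and 4203 in replicate 1, which is 3859 CPM (3706 to 4019) and 4854 CPM (4710 to 5004). CALR thus had 1.35 times the counts of CANX in replicate 2 (1.28 to 1.43) and 1.28 times in replicate 1 (1.23 to 1.34). The value of this ratio in replicate 2 was 1.05 times that in replicate 1, with an interval of 0.984 to 1.13 that includes equality. Any length correction cancels in this last comparison, since each gene is set against itself.

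The ID at rank 9 of replicate 2 had 3745 CPM, inside the interval of CANX, and the ID at rank 9 of replicate 1 had 3930.3 CPM, below it. Whether these were the same ID was not looked up. The place of CANX above rank 9 was therefore separated by more than counting error in replicate 1 but not in replicate 2.

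The 2 lectin genes also share a sequence upstream of their starts. The ER stress response element (ERSE) is the textbook site through which ATF6, with NF-Y, raises transcription of ER chaperone genes when unfolded proteins accumulate, and it reads CCAAT, then 9 bases of any kind, then CCACG. It was searched on both strands of RefSeq promoter windows (GRCh38.p14, 250 bases before to 50 after each start), where 5 of the 7 genes matched by symbol, with 10 windows in all (CALR, GANAB and UGGT1 1 each, PRKCSH 3, CANX 4). A full element was found for CALR and CANX, beside 25 of all 27305 genes with a window, or 0.0916%. By window it was in 27 of all 35116, or 0.0769%. The elements are shown to compare the lectins, written in the direction of the motif, with its fixed letters in capitals and its spacer in lower case.
CALR, chr19:12938384-12938402, - strand: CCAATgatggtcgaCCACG
CANX, chr5:179698778-179698796, + strand: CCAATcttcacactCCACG
The spacers share 1 of 9 letters. The CALR element lies at bases -225 to -207 from the start, on the strand opposite to the gene. In CANX the same site falls in 3 of the 4 windows, at -151 to -133, at -189 to -171, or across the start at -9 to 10, depending on which start is used. No window of GANAB, PRKCSH or UGGT1 held the full element, and MOGS and PDIA3 were not matched. A second form, ERSE-II, which reads ATTGG, then 1 base, then CCACG, was in no window of these genes and in 19 of all 35116, or 0.0541%. The short CCAAT box alone, which overlaps both elements, was in 34.6% of all windows. These matches describe sequence only; fragments of 1 condition say nothing about the use of a promoter.

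The 250 bases before the start are printed for CALR and GANAB, the members with the highest counts with and without the element. Both are written 5′ to 3′ along the gene.
CALR, chr19:12938359-12938608, + strand, the ERSE in capitals: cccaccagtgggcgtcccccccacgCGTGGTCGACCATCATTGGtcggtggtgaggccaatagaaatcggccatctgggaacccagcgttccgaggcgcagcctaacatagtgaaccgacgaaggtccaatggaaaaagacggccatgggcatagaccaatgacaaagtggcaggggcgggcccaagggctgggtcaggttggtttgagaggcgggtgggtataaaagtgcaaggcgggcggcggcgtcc
GANAB, chr11:62646614-62646863, - strand, CCAAT boxes in capitals: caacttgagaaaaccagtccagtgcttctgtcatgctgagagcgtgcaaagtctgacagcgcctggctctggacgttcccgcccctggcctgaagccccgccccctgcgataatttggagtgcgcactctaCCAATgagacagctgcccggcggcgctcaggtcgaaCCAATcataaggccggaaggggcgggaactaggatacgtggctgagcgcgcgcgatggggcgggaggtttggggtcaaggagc
The GANAB boxes begin at -119 and -83, and neither is followed by CCACG at the spacing of the element. CALR also has CCAAT boxes outside its element, beginning at -194, -124 and -94, which are left in lower case.

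PDIA3 (ENSG00000167004.8) encodes ERp57, the disulfide isomerase that docks on both lectins and forms disulfide bonds in the glycoproteins they hold. It had 429 counts in replicate 2 and 656.5 in replicate 1, which is 702 CPM (637 to 772) and 758 CPM (701 to 818), with overlapping intervals. CALR had 7.43 times its counts in replicate 2 (6.71 to 8.24) and 8.22 times in replicate 1 (7.58 to 8.93). CANX had 5.50 times its counts in replicate 2 (4.96 to 6.11) and 6.40 times in replicate 1 (5.90 to 6.97). The isomerase thus collected far fewer fragments than either lectin it works with, in both libraries. RefSeq lists 2 pseudogenes named after PDIA3 (PDIA3P1 and PDIA3P2) and none named after the other 6 genes. How fragments shared by such copies were counted is not given in the sources used here, so the count of PDIA3 is uncertain in that respect.

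GANAB (ENSG00000089597.12) encodes the catalytic alpha subunit of glucosidase II, which removes the inner glucoses and so both admits a glycoprotein to the lectins and releases it. It had 4120 counts in replicate 2 and 5895 in replicate 1, which is 6740.1 CPM (6538 to 6949.6) and 6808 CPM (6637 to 6985). It was the highest of the 7 in both libraries, and its 2 values lay close together, with a mean of 6774 CPM ± 48.3 (SD, n = 2). Positions along the gene are not analysed here, so it could not be checked for GANAB, or for the other members, whether all counted fragments are footprints on the coding sequence. The ID at rank 5 of replicate 2 had 7195 CPM, above the interval of GANAB, and the ID at rank 5 of replicate 1 had 6888 CPM, inside it. Whether these were the same ID was not looked up.

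PRKCSH (ENSG00000130175.5) encodes the beta subunit, which keeps the catalytic subunit in the ER and helps it bind its substrate. It had 962 counts in replicate 2 and 1554 in replicate 1, which is 1574 CPM (1476 to 1677) and 1795 CPM (1707 to 1887). The alpha subunit therefore had 4.28 times the counts of its partner in replicate 2 (3.99 to 4.60) and 3.79 times in replicate 1 (3.59 to 4.01). This ratio was 1.13 times as large in replicate 2 as in replicate 1 (1.03 to 1.24). GANAB has the longer coding sequence of the pair, so the mean count ratio of 4.04 ± 0.346 (SD, n = 2) is not a ratio per length, which was not computed, and it also rests on the GANAB count, whose fragments were not placed along the gene.

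MOGS (ENSG00000115275.7) encodes glucosidase I, the membrane enzyme that takes off the outermost glucose before glucosidase II can act. It was the lowest of the 7, with 175 counts in replicate 2 and 239 in replicate 1, which is 286 CPM (245 to 332) and 276 CPM (242 to 313). These intervals overlapped, and MOGS was the only member whose CPM was higher in replicate 2, while the other 6 were lower there. Most IDs were lower there too: scaled by library size, 66.5% of the 2241 IDs compared gene by gene below. After the TMM scaling used below, 5 of the 7 were lower in replicate 2, beside 56.8% of the 2241 IDs. The count of lower members is therefore not a result about these genes. GANAB had 23.5 times the counts of MOGS in replicate 2 (20.2 to 27.5) and 24.7 times in replicate 1 (21.7 to 28.2), a ratio of 0.954 between the libraries (0.779 to 1.17) that includes equality.

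UGGT1 (ENSG00000136731.8) encodes the folding sensor, the glucosyltransferase that puts a glucose back on glycans of misfolded proteins. It had 261 counts in replicate 2 and 517 in replicate 1, which is 427 CPM (377 to 482) and 597 CPM (547 to 651), with intervals that did not overlap. GANAB, which removes the glucose that UGGT1 adds, had 15.8 times its counts in replicate 2 (13.9 to 18.0) and 11.4 times in replicate 1 (10.4 to 12.5). UGGT1 has the longest coding sequence of the 7, and still had fewer counts than the 5 others apart from MOGS in both libraries.

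**Figure D2:**
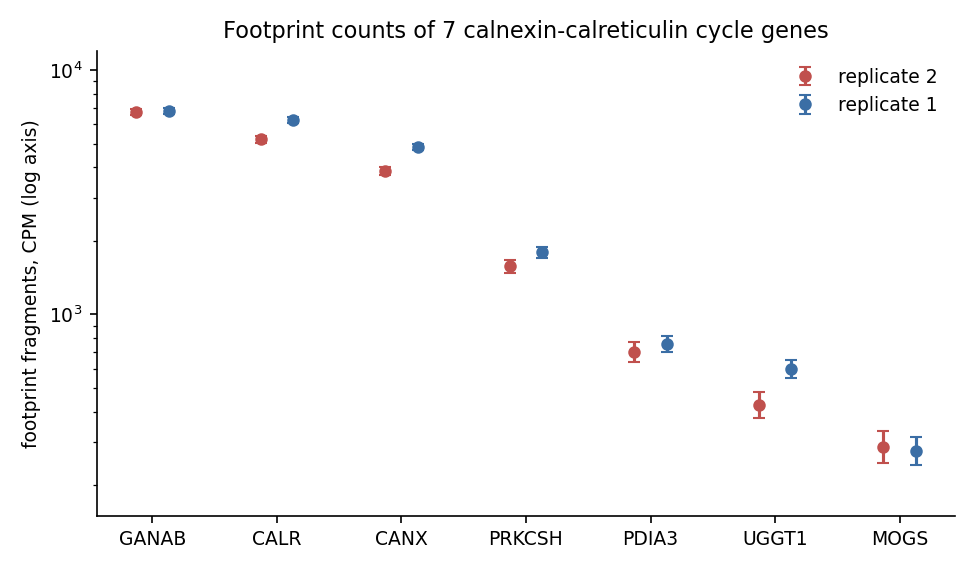
Fragments of the 7 genes (CPM, log axis) in replicate 2 (red) and replicate 1 (blue), with bars for the exact 95% counting interval, and genes ordered by mean CPM. GANAB lies near 6774 CPM and MOGS near 281 CPM, the order is the same in both libraries, and the largest gaps between replicates are in CALR, CANX and UGGT1.

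The order from GANAB through CALR, CANX, PRKCSH, PDIA3 and UGGT1 to MOGS was the same in both libraries. In each of the 6 neighbouring pairs of this order, the ranges over the 2 libraries did not overlap. The closest neighbours were UGGT1, at 597 CPM or less, below PDIA3, at 702 CPM or more; CALR, at 6230.4 CPM or less, below GANAB, at 6740.1 CPM or more; and CANX, at 4854 CPM or less, below CALR, at 5214 CPM or more. The order is one of fragment counts, and an order per length may differ.

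By role, the lectins CALR and CANX held 48.3% of the 7 genes' fragments in replicate 2 (47.3 to 49.2) and 52.0% in replicate 1 (51.3 to 52.7). Glucosidase II, as GANAB and PRKCSH, held 44.2% in replicate 2 (43.3 to 45.1) and 40.4% in replicate 1 (39.6 to 41.1). The difference, replicate 2 minus replicate 1, was -3.74 percentage points for the lectins and 3.86 for glucosidase II, and the 2 libraries' counting intervals did not overlap for either role. Shares within the set are tied to each other, so a larger share of one role lowers the rest. By share of the set, GANAB held 35.8% of the fragments in replicate 2 (35.0 to 36.7) and 31.9% in replicate 1 (31.3 to 32.6), while PRKCSH held 8.37% and 8.42% in the same order. In CPM it was otherwise: GANAB had 6740.1 in replicate 2 and 6808 in replicate 1, while PRKCSH had 1574 and 1795. The set as a whole held 1.88% of replicate 2 and 2.13% of replicate 1, and a lower sum raises the share of a gene that stays level. The remaining genes were a small part: PDIA3 held 3.64% ± 0.125, UGGT1 2.54% ± 0.375 and MOGS 1.41% ± 0.161 (SD, n = 2 for each). CALR, CANX and GANAB together held 84.1% in replicate 2 and 83.9% in replicate 1.

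**Figure D3:**
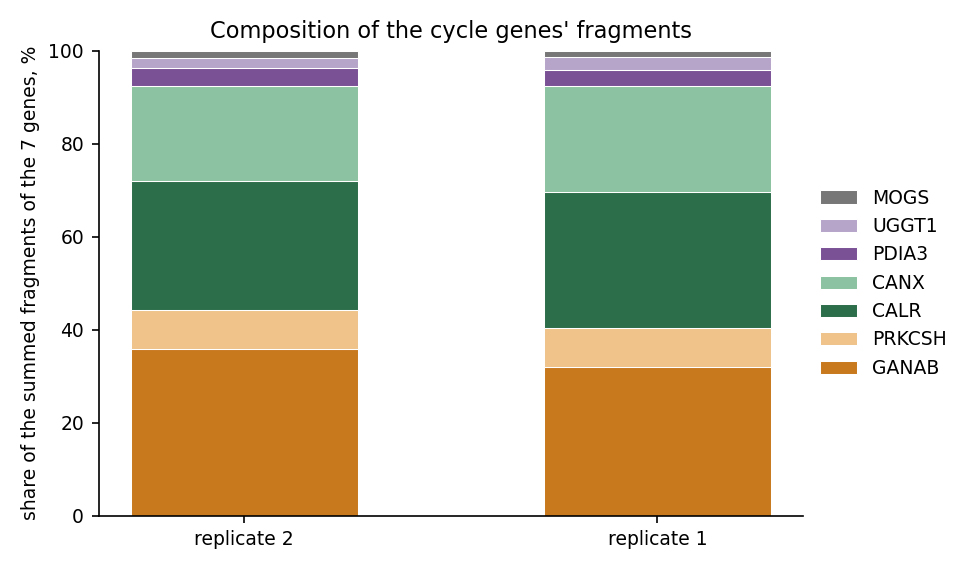
Share of the summed fragments of the 7 genes (%) in replicate 2 (left bar) and replicate 1 (right bar), stacked by gene. GANAB takes 35.8% in replicate 2 and 31.9% in replicate 1, and CALR and CANX together take 48.3% and 52.0%. The other genes change less in percentage points. Among them, the UGGT1 share is lower in replicate 2, and its counting intervals in the 2 libraries do not overlap.

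The libraries were then compared gene by gene. For each gene the value in replicate 2 was divided by that in replicate 1 after TMM scaling, and the ratio was given an exact binomial interval. This compares 2 libraries of the same treatment, not conditions. None of the 7 had an interval wholly beyond 2-fold, against 18 of the 2241 IDs whose counts sum to 100 or more, or 0.803%. None lay wholly beyond 1.5-fold either, where 4.24% of the 2241 did. At such low background shares, 0 of 7 is near what the whole table gives. No p-value was computed, and single genes were called by this interval rule only.

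UGGT1 lay furthest from equality, with a log2 ratio of -0.37 (-0.59 to -0.16), followed by CANX at -0.22 (-0.30 to -0.15), MOGS at 0.16 (-0.13 to 0.45) and CALR at -0.15 (-0.21 to -0.08). GANAB had a log2 ratio of 0.09 (0.04 to 0.15), which became -0.01 (-0.07 to 0.04) when libraries were scaled by size, so its direction depends on the scaling. PRKCSH, at -0.08 (-0.20 to 0.04), and PDIA3, at -0.0012 (-0.18 to 0.18), had intervals that include equality. Intervals off equality were thus seen for 4 of the 7, beside 37.9% of the 2241 IDs. Genes with more counts have narrower intervals, and these sets were not matched by count. CALR, CANX and UGGT1 were lower in replicate 2, where 22.3% of the IDs were, and GANAB was higher, where 15.6% were. By library size the 4 were CALR, CANX, UGGT1 and PRKCSH, all lower in replicate 2, beside 43.4% of the IDs in either direction and 31.4% lower.

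The median absolute log2 ratio was 0.15 over the 7 genes, beside 0.30 over the 2241 IDs and 0.24 over the 696 of these in the highest abundance bin. The sets were not matched by count: summed counts ran from 414 to 10015 in the 7 genes, and began at 100 in the 2241 IDs and at 314 in the bin. Ratios of genes with more counts spread less from counting error alone. The median signed ratio was -0.08 over the 7 genes and -0.07 over the 2241 IDs. Scaling by library size moved the median of all 2241 to -0.18, and relative to the median of all IDs, whatever the scaling, UGGT1 stood at -0.30, CANX at -0.15, CALR at -0.07, PRKCSH at -0.0071, PDIA3 at 0.07, GANAB at 0.17 and MOGS at 0.24.

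**Figure D4:**
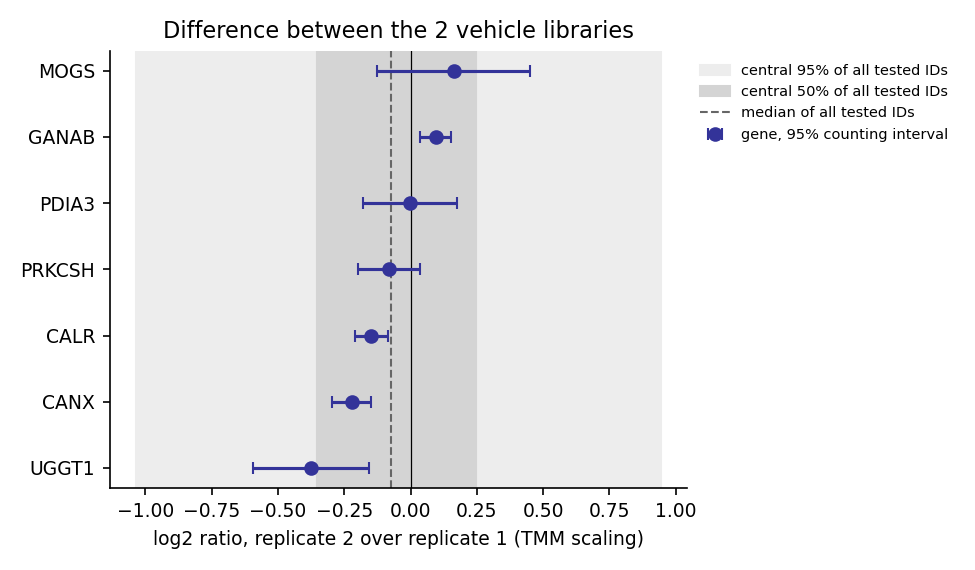
Log2 ratio of replicate 2 over replicate 1 after TMM scaling for the 7 genes, with bars for the exact 95% counting interval; grey bands hold the central 50% and 95% of the 2241 IDs compared, and the dashed line is their median, -0.07. UGGT1, at -0.37, lies just outside the central 50% band, and the other 6 lie inside it.

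Pairs of members were also set against each other, since the change of a count ratio between libraries depends neither on scaling nor on length. Of the 21 pairs, 11 had a ratio whose interval for replicate 2 over replicate 1 excluded equality. CANX, UGGT1 and GANAB took part in 4 of these each, MOGS and PRKCSH in 3 each, and CALR and PDIA3 in 2 each. The widest change was in UGGT1 over MOGS, which was 1.49 in replicate 2 (1.23 to 1.82) and 2.16 in replicate 1 (1.85 to 2.53), a ratio of 0.689 between the libraries (0.536 to 0.888). GANAB over UGGT1 differed by 1.38 times (1.18 to 1.62). These pairs share genes and are not independent, and their intervals leave out the spread between libraries that counting does not explain. That spread, as the common coefficient of variation from edgeR over the 2241 IDs, was 0.209. How many pairs of other IDs this rule would call was not computed, so 11 of 21 is not a result about these genes. Among single IDs, 37.9% of the 2241 had an interval off equality after TMM scaling.

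**Figure D5:**
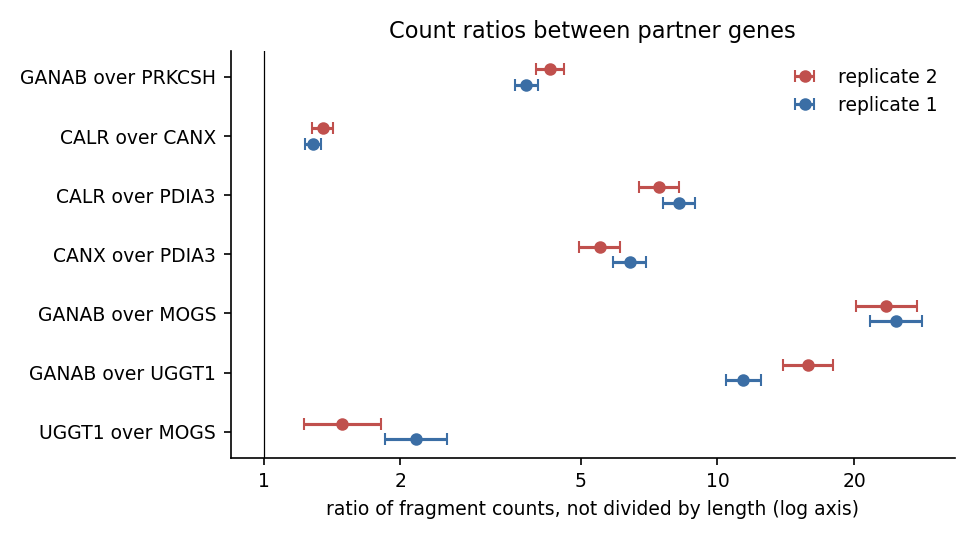
Ratio of fragment counts between partner genes, not divided by length (log axis), in replicate 2 (red) and replicate 1 (blue), with bars for the exact 95% counting interval. The replicates' intervals overlap for CALR over CANX, CALR over PDIA3, CANX over PDIA3, GANAB over MOGS and GANAB over PRKCSH. They are apart for GANAB over UGGT1 and UGGT1 over MOGS. Among the overlapping pairs, the change from replicate 1 to replicate 2 still excluded equality for CANX over PDIA3 (0.859, 0.751 to 0.982). It did so for GANAB over PRKCSH too (1.13, 1.03 to 1.24), and included equality for the rest.

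Some deposited values were fractional, that is, over 0.001 away from the nearest whole count. Of the 14 values of these genes, 12 were whole and 2 were not, both in replicate 1 (CALR and PDIA3), each with a fraction of 0.5. Over all IDs, such fractions made up 13.9% of nonzero values in replicate 2 and 15.2% in replicate 1. Counted per ID, 2 of the 7 genes had such a value, beside 21.6% of the 2241 IDs. In the RefSeq table (GRCh38.p14), GANAB and MOGS overlapped no other listed gene. The other 5 did: CALR overlapped MIR6515, CANX overlapped CBY3 and HMGB3P22, PDIA3 overlapped ELL3, UGGT1 overlapped SRMP3, and PRKCSH overlapped ODAD3 and LOC124904800. The strand setting of the counting is not given in the sources used here, and whether fragments of these neighbours entered the counts was not tested.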

How the data were processed

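The deposited table gives the authors' counts of fragments of 27 to 29 nt per Ensembl gene ID, 1 column for each library and unscaled, per the labels and design text. Some values are not whole, so they were treated as estimated counts, as deposited for shares and CPM and rounded for scaling factors and intervals. The genome build named is hg19, per the submitters' processing notes; aligner, counter, annotation and strand setting are not given in those sources. Per the labels' protocols, ribosomal RNA was not depleted, and gel purification kept fragments between 20 and 38 nt.

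The 7 members and all lists were chosen with earlier results of these data known; the rule for named genes was to report all 7. Gene symbols come from the definition of the set. The reference table (59792 genes) held 0 of the count table's IDs, so 17 other pathway genes and 5 HEK293 markers that had been listed were not looked up, and the cell line label was not checked. Planned densities per coding length were not run for want of lengths here, and count ratios replaced them. Columns of other samples in the table numbered 0.

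CPM and shares used each library's sum. Ratios of replicate 2 over replicate 1 used TMM factors (edgeR 4.0.16, R 4.3.3; IDs with at least 20 summed counts) and conditional exact binomial intervals over IDs with at least 100, with library size and DESeq2 1.42.0 factors as alternatives. Pair ratios between libraries used exact conditional odds ratios (scipy 1.17.1, Python 3.11.15). The interval and scaling steps were tested on simulated data. Promoter motifs, chosen with the sequences at hand, were searched as exact letters. The depth of 611266 counts in replicate 2 and 865838 in replicate 1 sets the precision: a member's lowest count was 175.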

Additional observations from a re-analysis of the deposited data

How the results depend on the processing

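Each member's CPM rose when the 2 highest IDs of the table were left out of the library size, by construction, and the summed share of the 7 genes then averaged 2.52% in place of 2.01%; rounding kept it within 1 SD. Leaving out a library gives the other library's share, 1.88% or 2.13%, which with 2 libraries lies within 1 SD of their mean by construction. The count of members beyond 2-fold stayed 0 under library-size, DESeq2 and other TMM scaling, a 1.5-fold limit and 99% intervals. It stayed 0 with a minimum of 20 summed counts, and without the 2 highest IDs. With the non-whole IDs left out it was 0 of 5, since CALR and PDIA3 drop out. That setting compared 1756 IDs, of which 11 were higher and 4 lower in replicate 2 beyond 2-fold. With no fold limit, a rule added after seeing the data, the count was 4 of all 7 members, beside 37.9% of the 2241 IDs. It was also 4, for the same genes, with DESeq2 factors and with 99% intervals. Over the 2241 IDs, 355 were then higher and 494 lower in replicate 2 with DESeq2 factors, and 261 and 345 with 99% intervals. By library size it was 4 too, beside 43.4% of the IDs, but with PRKCSH in place of GANAB. Pairs with a changed count ratio numbered 11 of 21 at 95%, 6 at 99%, 9 of 15 without PDIA3, and 11 with values rounded down, all added after seeing the data. No such share was computed over pairs of other IDs. GANAB's log2 ratio was 0.09 with the TMM minimum of 20 summed counts, 0.01 with a minimum of 1, 0.16 with a minimum of 100, and -0.01 by library size. Ratios per coding or transcript length were not run, since no lengths were used here. No paired analysis was possible because both libraries belong to 1 group. Depth limits MOGS most, whose interval spans -0.13 to 0.45 on the log2 scale.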
